A study of Homo sapiens with 15 samples.

Results

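ATP-binding cassette (ABC) transporters were taken as the genes whose symbol is ABC followed by a family letter from A to G and a number. The rule found 26 of the 15790 genes in the deposited table. They were 7 ABCA, 6 ABCB, 6 ABCC, 3 ABCD, 1 ABCE and 3 ABCF genes. The ABCB genes include ABCB1, which encodes the drug efflux pump P-glycoprotein. Other members of the superfamily were not analysed here, except TAP1 and TAP2, which were read beside the partner genes.

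RNA was sequenced from 15 libraries of human cell cultures collected 14 days after seeding, 3 in each of 5 groups. The epithelium was RPTEC/TERT1, an immortalized proximal tubule line, grown alone on LN/FN-silk membranes, which contain recombinant spider silk (silk monocultures), or alone on LN/PC membranes (LN/PC monocultures). On each membrane it was also grown with fHDF/TERT166, immortalized dermal fibroblasts from foreskin (silk co-cultures and LN/PC co-cultures). The remaining group held fHDF/TERT166 cells without epithelium, taken from the bottom of the well, which the titles call monocultures and the protocol calls basolateral (fibroblast monocultures). Seeding densities were 140000 epithelial cells and 14000 fibroblasts per cm2, co-cultures received the epithelial medium, and each sample pooled 3 to 8 membranes. Each cell type is a single immortalized line. Silk was harvested by scraping and LN/PC by cutting the membrane from its holder, so the membrane and the way of harvest cannot be told apart. Nothing in the labels says that replicates were separate cultures, and p-values cover the spread among these samples alone, possibly technical.

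ABC proteins bind and split ATP, and most use that energy to move a substrate across a membrane. In the proximal tubule, P-glycoprotein (ABCB1) sits in the apical membrane and exports drugs into the tubular fluid, while members of the multidrug resistance protein family (ABCC) export organic anions and conjugates at the apical or the basolateral side. ABCA proteins mostly move lipids, organelle ABCB and ABCD proteins serve mitochondria, lysosomes and peroxisomes, and ABCE and ABCF proteins lack membrane spans and act in translation.

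Promoter windows are shown for the members whose levels separated the cell types or the membranes most plainly. These are ABCB1, at 0 in fibroblasts, ABCA6, at 0 in epithelium grown alone, and ABCC5, higher on silk in all libraries. The sequences are from RefSeq (GRCh38.p14), run from 250 bases before to 50 bases after a gene start, and were available for 22 of the 26 members in 28 windows. Capitals mark 4 motifs searched on both strands. The CCAAT box was searched as those letters. The GC box was spelled GGGCGG. For the TATA box the letters were TATAAA. For the E box they were CACGTG. The 4 motifs did not overlap one another in the windows shown. The ABCB1 windows are at chr7:87600835-87601134 and chr7:87713246-87713545, the ABCC5 window at chr3:184017835-184018134 and the ABCA6 window at chr17:69141846-69142145, all on the minus strand.
ABCB1 window 1: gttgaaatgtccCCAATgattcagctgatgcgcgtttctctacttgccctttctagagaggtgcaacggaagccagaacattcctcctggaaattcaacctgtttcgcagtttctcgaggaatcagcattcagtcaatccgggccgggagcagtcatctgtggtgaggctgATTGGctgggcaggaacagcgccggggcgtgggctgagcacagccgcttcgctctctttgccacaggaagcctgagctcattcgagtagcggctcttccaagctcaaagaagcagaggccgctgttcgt
ABCB1 window 2: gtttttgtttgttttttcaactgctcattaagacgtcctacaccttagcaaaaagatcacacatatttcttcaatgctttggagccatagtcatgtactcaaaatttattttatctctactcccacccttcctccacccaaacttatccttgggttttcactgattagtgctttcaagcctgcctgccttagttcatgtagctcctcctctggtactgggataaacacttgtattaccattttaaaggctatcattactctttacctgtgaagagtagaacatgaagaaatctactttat
ABCC5: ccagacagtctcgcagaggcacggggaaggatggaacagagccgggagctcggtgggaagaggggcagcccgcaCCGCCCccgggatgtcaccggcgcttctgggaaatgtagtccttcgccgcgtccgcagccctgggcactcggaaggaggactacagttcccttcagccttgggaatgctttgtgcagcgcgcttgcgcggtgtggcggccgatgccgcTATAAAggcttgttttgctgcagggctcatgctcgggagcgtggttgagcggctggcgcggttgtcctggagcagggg
ABCA6: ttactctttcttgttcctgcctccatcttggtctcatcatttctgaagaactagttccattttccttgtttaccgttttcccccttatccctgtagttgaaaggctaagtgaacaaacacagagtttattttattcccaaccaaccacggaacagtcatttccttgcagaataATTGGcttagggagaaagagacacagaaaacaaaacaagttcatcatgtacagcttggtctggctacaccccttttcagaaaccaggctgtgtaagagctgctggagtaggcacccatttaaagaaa
Window 1 of ABCB1 held 2 CCAAT boxes, at -238 on the plus strand and -79 on the minus strand from the start, and 55.3% G and C. Window 2 held none of the 4 motifs and 37.7% G and C. The ABCC5 window held a GC box at -176 and a TATA box at -28 (65.7% G and C). The ABCA6 window held a CCAAT box at -77 on the minus strand (41.7% G and C). Across all 35116 windows, 34.6% held a CCAAT box, 45.0% a GC box, 11.5% a TATA box and 7.26% an E box. Of the 28 member windows, 7, 18, 4 and 6 held them in that order. These matches describe letters in a window, and no binding was measured.

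In units of 1e6, normalized library totals were 9.08 to 12.7, and the spacing of low values put the assigned reads at about 8.80 to 14.5 in the same units. Of 18 renal epithelial markers in the table, 18 were detected in each of the 4 epithelial groups, and 7 were at 0 in all fibroblast libraries. In fibroblasts 5 averaged at least 10 normalized counts. Summed, the renal markers stood at 42802 to 53819.5 in silk monocultures and 45850 to 51131 in silk co-cultures. On LN/PC they summed to 42954 to 53238 and 38411 to 48499, and in fibroblasts to 16111 to 18984. CUBN, on this list, was higher in fibroblasts (mean 151) than in silk (61.9) or LN/PC (41.0) monocultures. The summed level of 20 fibroblast markers was 3400 to 4149 in the silk monocultures and 4435 to 4970 in the silk co-cultures. On LN/PC it was 4391 to 5517 without fibroblasts and 141783 to 243484 with them, and fibroblasts alone had 809514 to 900191. The share of RNA from fibroblasts, the median over 112 fibroblast-restricted genes, was 13.0 ± 2.80% (SD, n = 3) in co-cultures on LN/PC against 0.0457 ± 0.0597% in those on silk (permutation p = 0.1, exact and two-sided, which is the smallest value possible for 3 against 3). Summed markers put the LN/PC share at 20.9%, so its size depends on the estimate. The 1 leukocyte-list marker in the table stood at 85.8 to 196 normalized counts in silk monocultures and 757 to 885 in silk co-cultures, against 152 to 255 and 351 to 501 on LN/PC and 523 to 581 in fibroblasts. In bulk RNA, fewer cells of a type and less RNA per cell cannot be told apart. The libraries labelled as silk co-cultures held almost no fibroblast RNA by this measure, and its part in each co-culture result was not tested beyond the values given. Mitochondrial transcripts took 4.23 to 6.58% of the total in the 6 silk libraries and 1.50 to 3.80% in the 6 LN/PC libraries, without overlap. They moved with the membrane in every silk against LN/PC comparison given here, and their part in those differences was not tested. LN/PC monoculture 2 stood apart from its replicates, at 3.80% against 2.12% and 1.50%. Results that rest on it are given with and without it, except those against a computed mixture, which were not repeated without it.

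P-glycoprotein RNA was abundant in epithelium and at 0 in fibroblasts. ABCB1 reached 1385, 1292 and 1376 normalized counts in silk monocultures. The silk co-cultures had 1051, 929 and 691. In LN/PC monocultures it reached 1409, 591 and 1365, so replicate 2 lay far below the other two. LN/PC co-cultures had 876, 694 and 691 normalized counts, and the 3 fibroblast libraries had 0. Each silk monoculture lay above each silk co-culture, whereas LN/PC monoculture 2 lay below all 3 LN/PC co-cultures. Against a floor of 3 reads per library, ABCB1 was at least 406-fold lower in fibroblasts than in the epithelial monocultures (at least 444-fold against silk and 368-fold against LN/PC). Per kb of its longest coding transcript, ABCB1 stood at 283 ± 10.7 normalized counts per kb (SD, n = 3) in silk monocultures, rank 3 of 26 members after ABCC3 (532 ± 38.2) and ABCC4 (284 ± 7.53). The ABCB1 and ABCC4 levels per kb did not differ beyond their spread. In LN/PC co-cultures ABCB1 stood at 158 ± 22.2 per kb and ranked 8 of 26.

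**Figure D1:**
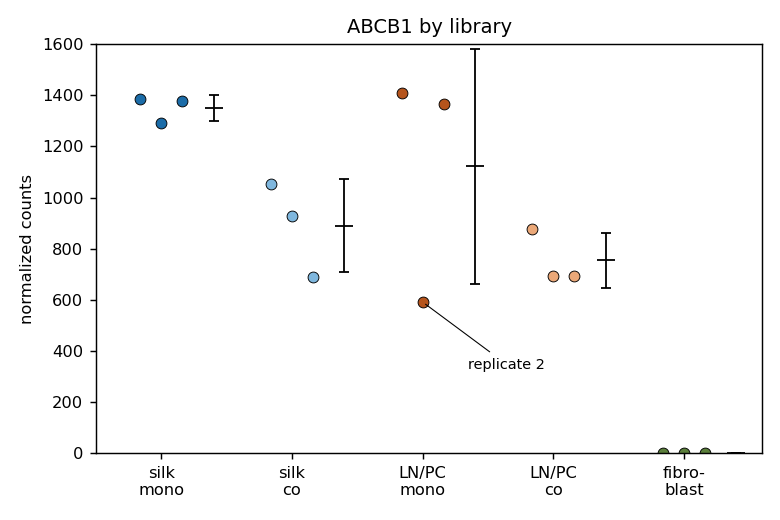
ABCB1 in normalized counts (vertical axis, linear from 0) for each library of the 5 groups (horizontal axis); points are libraries and the bar beside them is the mean ± SD of 3. The silk monocultures sit between 1292 and 1385 and the silk co-cultures between 691 and 1051, LN/PC monoculture 2 is at 591 and the fibroblast libraries are at 0.

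None of the tests of ABCB1 between epithelial groups passed an adjusted p of 0.05. On the log2(value + 1) scale, ABCB1 was 0.37 ± 0.26 (SE, 95% interval -0.17 to 0.92) higher in silk than in LN/PC monocultures, adjusted p = 0.359. Without LN/PC monoculture 2 that difference was -0.04, adjusted p = 0.901. Between co-cultures the difference, silk minus LN/PC, was 0.23 ± 0.26 (-0.32 to 0.77), adjusted p = 0.514. The intervals of both membrane comparisons take in 0 as well as rises of over 0.7 on this scale, so neither shows that the membranes give equal ABCB1.

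With fibroblasts in the culture, ABCB1 had lower values on both membranes, but whether it passed depended on 1 library, on which libraries were fitted together and on the scaling. On silk, the difference between co-culture and monoculture was -0.62 ± 0.26 (-1.17 to -0.08), adjusted p = 0.217. On LN/PC it was -0.48 ± 0.26 (-1.02 to 0.07), adjusted p = 0.250. The test of whether these differ gave an interaction of -0.14 ± 0.36, adjusted p = 0.861. Averaged over membranes, a comparison added after the data were seen, the difference was -0.55 ± 0.18 (-0.94 to -0.16), adjusted p = 0.0616. Without LN/PC monoculture 2 it was -0.75 (adjusted p = 0.000285), with -0.62 on silk (adjusted p = 0.0274) and -0.89 on LN/PC (adjusted p = 0.00215). With only the silk libraries fitted, the difference on silk passed (-0.62, adjusted p = 0.0246), as did the averaged difference under upper quartile scaling (-0.56, adjusted p = 0.0412). Scaled on 72 epithelium-restricted genes, the averaged difference was -0.24 (adjusted p = 0.366) and the difference on LN/PC -0.05 (adjusted p = 0.909). A computed mixture of LN/PC monoculture and fibroblast libraries at the measured 13.0% held 976 normalized counts of ABCB1, and the LN/PC co-cultures held 77.2% of that (754 ± 106), log2 difference -0.28, adjusted p = 0.560. At the 20.9% share, an alternative added after the data were seen, it was -0.14 (adjusted p = 0.794). Library by library, the 13.0% mixture held 1226, 515 and 1188 normalized counts, the 515 built from LN/PC monoculture 2. Neither mixture comparison was repeated without that library, so both rest on it. ABCB1 was at 0 in fibroblasts, and the silk co-cultures held 0 to 0.113% fibroblast RNA per library, while LN/PC co-cultures held 9.81 to 15.2%.

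In LN/PC monoculture 2, ABCB1 was the member farthest below the other replicates. Its ABCB1 was 0.426 of the mean of the other two libraries, against a median ratio of 1.003 over all tested genes, and 3.42% of genes (493) had a ratio that low. The next lowest member was ABCC4, at 0.640, while ABCA1 (1.36) was higher there than in the other replicates.

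Of the multidrug resistance proteins, ABCC5 and ABCC3 were higher on silk in both culture types. ABCC5 (MRP5), an exporter of cyclic nucleotides, reached 1251, 1298 and 1403 normalized counts in silk monocultures and 826, 834 and 841 in silk co-cultures. On LN/PC it reached 744, 651 and 560.0 in monocultures and 516, 522 and 663 in co-cultures, and in fibroblasts 486, 358 and 516. The 6 silk libraries all lay above the 6 LN/PC libraries. ABCC5 was 1.02 ± 0.15 higher on silk in monocultures (log2, adjusted p = 0.00049) and 0.56 ± 0.15 higher in co-cultures (adjusted p = 0.00791). It fell from silk monocultures to silk co-cultures by 0.66 ± 0.15 (adjusted p = 0.0176), whereas the difference on LN/PC was -0.20 ± 0.15 (adjusted p = 0.416). The fall on silk lost its call without either of silk monocultures 2 and 3 or without any one silk co-culture (adjusted p 0.063 to 0.0835).

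ABCC3 (MRP3), a basolateral exporter of glucuronide conjugates, ranked first per kb in each of the 4 epithelial groups. It reached 3246, 3069 and 2812 normalized counts in silk monocultures and 2396, 3124 and 2697 in silk co-cultures. On LN/PC the values were 2494, 1802 and 1645 in monocultures and 1591, 1860.3 and 2113 in co-cultures. The groups did not overlap between membranes in either culture type, and ABCC3 was 0.64 ± 0.17 higher on silk in monocultures (adjusted p = 0.0257) and 0.56 ± 0.17 higher in co-cultures (adjusted p = 0.0182). The monoculture call was lost without silk monoculture 1 (0.59, adjusted p = 0.0826), silk monoculture 2 (0.63, 0.0689) or LN/PC monoculture 3 (0.52, 0.117). The co-culture call was lost without silk co-culture 2 (0.46, 0.0884), silk co-culture 3 (0.57, 0.0526) or LN/PC co-culture 1 (0.46, 0.0953).

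ABCC4 (MRP4), an apical exporter of organic anions and cyclic nucleotides, was 0.52 ± 0.19 higher in silk than in LN/PC co-cultures (adjusted p = 0.0392), and 0.04 ± 0.19 apart in monocultures (adjusted p = 0.926). Its silk libraries spanned 1612 to 1775 normalized counts, a narrow range beside 1087 to 2288 on LN/PC. That call was lost without silk monoculture 2, without any one silk co-culture and without LN/PC co-culture 1 or 3 (0.46 to 0.54, adjusted p 0.0509 to 0.13). ABCC1 (MRP1), an exporter of glutathione conjugates, ran from 819 to 1377 normalized counts in epithelium and did not pass in any pairwise comparison between the epithelial groups. ABCC10 ran from 81.9 to 251 and ABCC6, mutated in pseudoxanthoma elasticum, from 24.8 to 75.3, again with no call among these groups. ABCC6 has near-identical pseudogene copies and ABCC10 overlaps DLK2 in the annotation, so their values are uncertain.

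**Figure D2:**
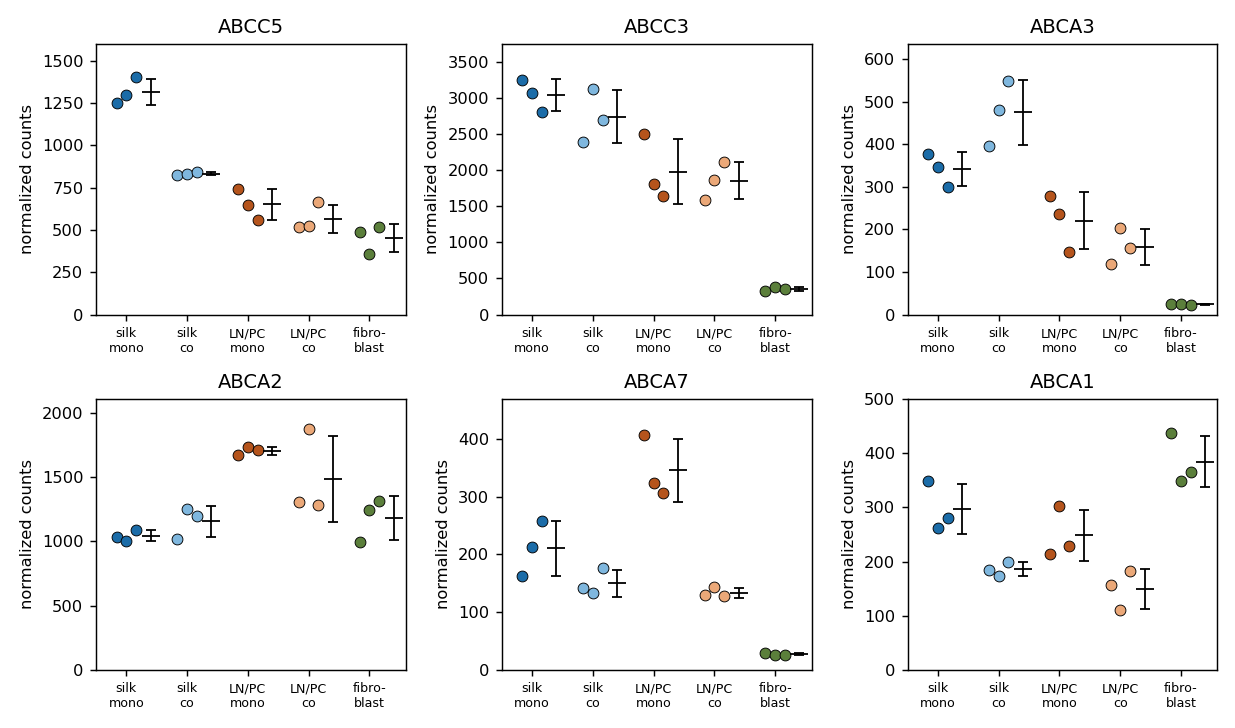
Normalized counts (vertical axes, linear from 0) of ABCC5, ABCC3, ABCA3, ABCA2, ABCA7 and ABCA1 by library in the 5 groups; points are libraries and bars the mean ± SD of 3. ABCC5 and ABCA3 lie higher and ABCA2 lower in the 6 silk libraries than in the 6 LN/PC libraries, while ABCA7 is highest in LN/PC monocultures (306 to 408).

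Among the lipid transporters, ABCA3 and ABCA2 separated the membranes in opposite directions. ABCA3, which loads phospholipids into lamellar bodies in the lung, reached 378, 348 and 301 normalized counts in silk monocultures and 397, 479.7 and 549.6 in silk co-cultures. On LN/PC it reached 279.8, 236 and 147 in monocultures and 119, 203 and 157 in co-cultures. It was 1.59 ± 0.24 higher on silk in co-cultures (adjusted p = 0.000134). In monocultures the difference of 0.68 ± 0.24 missed the threshold (adjusted p = 0.081), although the libraries did not overlap.

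ABCA2, a sterol and sphingolipid transporter of late endosomes and lysosomes, reached 1038, 1006 and 1089.7 in silk monocultures against 1671, 1733 and 1715 in LN/PC monocultures. It was 0.71 ± 0.15 lower on silk there, a log2 difference of -0.71 (adjusted p = 0.00894). In co-cultures it reached 1017, 1255 and 1198 on silk and 1309.9, 1873 and 1283 on LN/PC, log2 difference -0.35 ± 0.15, adjusted p = 0.0887. Across both culture types, ABCA2, ABCA3 and ABCC5 were the 3 of 25 tested members whose 6 silk libraries did not overlap the 6 LN/PC libraries, a property that 9.35% of all tested genes had.

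ABCA7, a phospholipid transporter linked to phagocytosis, was highest in LN/PC monocultures. It reached 408, 324 and 306 normalized counts there, against 162, 213 and 258 in silk monocultures, 141, 133 and 177 in silk co-cultures and 129, 143 and 128 in LN/PC co-cultures. It fell by 1.36 ± 0.21 from LN/PC monocultures to LN/PC co-cultures (adjusted p = 0.000239), and the 2 groups lay far apart. Against the computed mixture it was still lower, by a log2 difference of -1.18 ± 0.21 (adjusted p = 0.00344), and -1.05 at the 20.9% share (adjusted p = 0.00651). It was also lower in silk than in LN/PC monocultures (-0.72 ± 0.21, adjusted p = 0.0356). That call was lost without silk monoculture 1 or 2, silk co-culture 1 or LN/PC monoculture 1 or 3 (-0.81 to -0.55, adjusted p 0.0504 to 0.151), and under upper quartile scaling (-0.65, adjusted p = 0.0548).

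ABCA1, which hands cholesterol to apolipoprotein A-I and is a classic target of the liver X receptors (LXR), was lower in LN/PC co-cultures than in LN/PC monocultures. It reached 349, 262 and 280.1 normalized counts in silk monocultures and 185, 173 and 199 in silk co-cultures. On LN/PC it reached 214, 303 and 229 in monocultures and 158, 109.9 and 182 in co-cultures. None of the 6 co-culture libraries reached the lowest of the 6 monoculture libraries. The fall on LN/PC was 0.74 ± 0.22 (log2 difference -0.74, adjusted p = 0.0333), the difference on silk -0.67 ± 0.22 (adjusted p = 0.106), and the averaged difference -0.70 ± 0.15 (adjusted p = 0.00588). The LN/PC call was lost without LN/PC monoculture 2 (-0.59, adjusted p = 0.101), LN/PC co-culture 1 (-0.79, 0.0725) or LN/PC co-culture 2 (-0.53, 0.137), and with epithelium-restricted scaling (-0.32, 0.347). Fibroblasts grown alone had more ABCA1 than either epithelial monoculture group, and against the mixture LN/PC co-cultures were lower by -0.85 ± 0.20 (adjusted p = 0.0261), and -0.91 at the 20.9% share (adjusted p = 0.0153).

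ABCA5, a lysosomal lipid transporter, reached 156, 182 and 185 normalized counts in silk co-cultures and 117, 102 and 121 in LN/PC co-cultures, 0.61 ± 0.23 higher on silk (adjusted p = 0.0434). The call was lost without silk monoculture 2 and without any one co-culture library of either membrane (0.54 to 0.69, adjusted p 0.0551 to 0.131). ABCA6 and ABCA9 lie near ABCA5 on chromosome 17 and were highest in fibroblasts. They overlap each other in the annotation, so their values are uncertain. ABCA6 was at 0 in all 9 libraries of the silk groups and the LN/PC monocultures. It reached 36.2, 19.6 and 27.1 normalized counts in LN/PC co-cultures, while fibroblasts had 453, 349 and 319.7. With a floor of 3 reads per library, it was at least 9.52-fold higher in LN/PC co-cultures than in LN/PC monocultures. The mean in LN/PC co-cultures was 57.0% of the 48.5 normalized counts expected from the mixture, log2 difference -0.82, adjusted p = 0.340, and -1.49 at the 20.9% share (adjusted p = 0.0682). ABCA9 was under the filter of the epithelial fit, at 0 to 2.40 normalized counts in the 12 epithelial libraries and 69.9, 99.7 and 118 in fibroblasts.

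ABCB8, a mitochondrial inner membrane transporter, reached 206, 305 and 255 normalized counts in silk monocultures and 159.7, 152 and 134 in silk co-cultures. The LN/PC monocultures had 333, 219.7 and 239 and the LN/PC co-cultures 256, 229.8 and 241. The silk co-cultures lay below all other epithelial libraries, with log2 differences of -0.76 ± 0.20 against silk monocultures (adjusted p = 0.0459) and -0.70 ± 0.20 against LN/PC co-cultures (adjusted p = 0.0134). The former call was lost without silk monoculture 2 or 3, without any one silk co-culture, without LN/PC co-culture 1 or 3 (-0.82 to -0.63, adjusted p 0.05 to 0.211) and with no filter (adjusted p = 0.0512). The latter was lost without silk co-culture 3 (-0.63, adjusted p = 0.0607).

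ABCB6, a porphyrin transporter, reached 435, 363 and 346 normalized counts in silk co-cultures and 311, 256 and 231 in LN/PC co-cultures, 0.52 ± 0.19 higher on silk (adjusted p = 0.0387). The call was lost without any one silk co-culture and without LN/PC co-culture 2 or 3 (0.43 to 0.59, adjusted p 0.0608 to 0.148). ABCB10, a mitochondrial transporter tied to heme, and ABCB9, a lysosomal peptide transporter that overlaps OGFOD2 in the annotation, passed in none of the comparisons between epithelial groups. Their epithelial ranges were 95.9 to 166 and 108 to 168 normalized counts. In the peroxisome, ABCD3, which imports branched and very long fatty acids, was lower in silk than in LN/PC co-cultures (-0.49 ± 0.16, adjusted p = 0.0232). The call was lost without silk co-culture 2 or 3 or LN/PC co-culture 2 or 3 (-0.49 to -0.41, adjusted p 0.0508 to 0.0985). ABCD4, a lysosomal cobalamin transporter (363 to 559), gave no call between epithelial groups.

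The soluble members were among the less variable. Over the 12 epithelial libraries, the coefficient of variation was 10.8% for ABCE1, which splits ribosomes after termination, 11.7% for ABCF3, 16.0% for ABCF2 and 18.2% for ABCF1. It was 31.3% for ABCB1, 36.8% for ABCC5, 44.3% for ABCA7 and 45.4% for ABCA3. None of the 4 soluble members was called between epithelial groups. In monocultures ABCF1 (-0.47 ± 0.16, adjusted p = 0.0619) and ABCF3 (-0.41 ± 0.14, adjusted p = 0.0664) lay lower on silk, without overlap between the libraries. The libraries of ABCE1 and ABCF2 did overlap there. ABCF2 overlaps a readthrough gene (ABCF2-H2BK1) and ABCE1 overlaps ANAPC10, which makes their values uncertain.

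Counted over the family, 2 members were higher and 2 lower in silk than in LN/PC monocultures, of 25 tested, where 11.7% of all tested genes were called (5.88% higher, 5.79% lower). The median log2 difference was 0.00 for members and 0.03 for all genes. In co-cultures 6 were higher and 3 lower on silk (36.1% of all genes called, 18.5% higher and 17.6% lower), with medians of 0.18 and 0.03. ABCA6, 1 of the 3, passed the filter through the LN/PC co-cultures alone, so it had to differ there. Of the other 24 members 6 were higher and 2 lower, with a median of 0.20. The shares of members called were 16.0% and 36.0%. Scaled on epithelium-restricted genes, the co-culture count was 1 higher and 4 lower, and ABCC5 (0.42, adjusted p = 0.0842), ABCC3 (0.42, 0.096), ABCB6 (0.38, 0.151), ABCC4 (0.38, 0.146) and ABCA5 (0.47, 0.176) lost their calls, as did ABCA7 in monocultures (-0.64, 0.0958). Over all genes, 36.7% of the calls between co-cultures were higher under that scaling, against 51.3% without it. Without overlap between the membranes were 9 of 25 members in monocultures (26.4% of all genes) and 11 in co-cultures (53.7%). The 6 ABCC members gave 2 calls in monocultures and 3 in co-cultures, all higher on silk, with medians of 0.64 and 0.40. ABCC1, without a call, lay lower on silk in monocultures with no overlap (-0.49 ± 0.16, adjusted p = 0.0617).

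**Figure D3:**
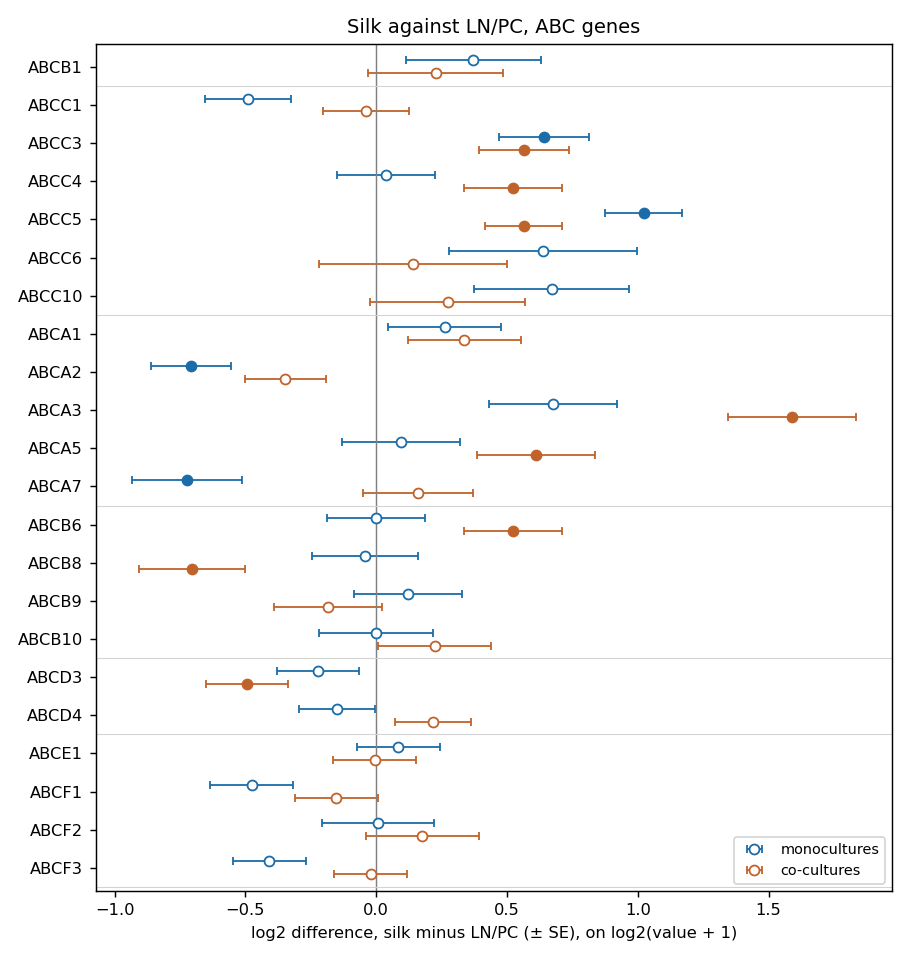
Log2 difference, silk minus LN/PC, with its SE (horizontal axis, on log2(value + 1)) for 22 ABC genes (vertical axis, by family), in monocultures and in co-cultures; filled points had an adjusted p under 0.05. ABCA6 and ABCA9, at or near 0 in epithelium, are among those not drawn; ABCC5 (1.02 and 0.56) and ABCC3 (0.64 and 0.56) are filled in both culture types.

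With fibroblasts on silk, 0 members were higher and 2 lower of 25 (3.78% of all genes called, 2.91% higher and 0.866% lower), with medians of 0.02 and 0.00 for members and all genes. The 2 were ABCB8 and ABCC5, and 7 members of 25 had an unadjusted p under 0.05 in this limma fit, as did 17.0% of all genes. Scaled on epithelium-restricted genes, ABCB8 was at -0.57 (adjusted p = 0.179) and ABCC5 at -0.47 (adjusted p = 0.147), without a call. On LN/PC, 1 was higher and 2 lower (12.5% of all genes, 7.8% higher and 4.72% lower), with medians of -0.20 and -0.04, the 1 higher being ABCA6. Without it, limma called 0 higher and 2 lower of 24. Of these 24, 5 had an unadjusted p under 0.05 in the same fit, as did 26.4% of all genes. Against the mixture 0 were higher and 2 lower, ABCA7 and ABCA1 (4.31% of all genes called, 1.95% higher and 2.36% lower), and 4 members of 25 had an unadjusted p under 0.05, as did 21.7% of all genes. In the interaction test the 1 member called was ABCA6, with a lower value (7.73% of all genes called, 3.15% higher and 4.59% lower). Without it limma called 0 of 24, and 4 had an unadjusted p under 0.05, as did 21.8% of all genes. Averaged over membranes, 1 was higher and 3 lower (11.7% of all genes, 7.89% higher and 3.76% lower), ABCA6 higher, through the LN/PC co-cultures alone and at 0 in all silk libraries, and ABCA7 (-0.92), ABCA1 (-0.70) and ABCC5 (-0.43, adjusted p = 0.0127) lower. With epithelium-restricted scaling ABCA1 (-0.40, adjusted p = 0.0875) and ABCC5 (-0.12, adjusted p = 0.502) lost these averaged calls, and 7 members were higher and 1 lower. Over all genes, 97.5% of the averaged calls were higher under that scaling, against 67.7% without it. ABCA1 was the only 1 of the 25 tested members whose co-culture and monoculture libraries did not overlap over both membranes, as held for 1.91% of all genes.

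**Figure D4:**
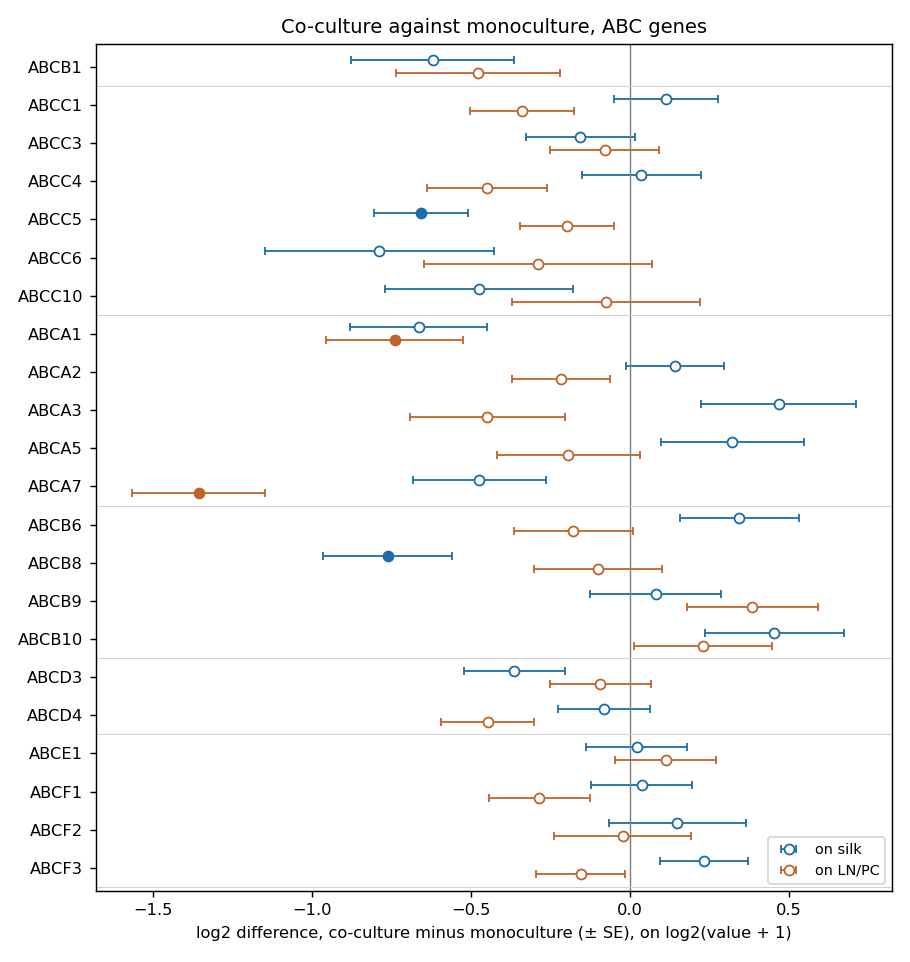
Log2 difference, co-culture minus monoculture, with its SE (horizontal axis, on log2(value + 1)) for 22 ABC genes (vertical axis, by family), on silk and on LN/PC; filled points had an adjusted p under 0.05. ABCB1 lies at -0.62 on silk and -0.48 on LN/PC with open points; ABCA7 (-1.36) and ABCA1 (-0.74) are filled on LN/PC, ABCB8 (-0.76) and ABCC5 (-0.66) on silk.

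Fibroblasts had less ABCB1, ABCC6, ABCA3, ABCA7 and ABCC3 than epithelium, and more ABCA6 and ABCA9. Of 26 members tested, 6 were higher and 11 lower in fibroblasts than in the 6 epithelial monocultures, 65.4% against 58.3% of all tested genes (28.0% higher, 30.3% lower), with medians of -0.37 and -0.02. ABCA6, ABCA9, ABCB1 and ABCC6 reached 10 normalized counts on 1 side alone, and of the other 22 members 4 were higher and 9 lower. In fibroblasts ABCA3 reached 24.2, 25.5 and 23.1 normalized counts (log2 difference -3.42 ± 0.22, adjusted p = 9.06e-08), and ABCA7 29.8, 26.4 and 25.5 (-3.25 ± 0.20, adjusted p = 5.86e-08). ABCC3 reached 323, 384 and 360.2 (-2.77 ± 0.14, adjusted p = 1.18e-08) and ABCC4 402, 448 and 446 (-1.92 ± 0.17, adjusted p = 1.52e-06). All of these fibroblast libraries lay below every epithelial monoculture. Of the ABCB1 and ABCC exporters, ABCB1, ABCC3, ABCC4 and ABCC5 (-1.04) were lower in fibroblasts, while ABCC1 (-0.08) and ABCC10 (0.61) gave no call. The fitted difference of ABCC6 was -4.45. ABCC6 was at 0, 6.76 and 1.59 normalized counts in fibroblasts, about 7.96 reads in all. Its fitted value depends on the added constant (-2.46 with 10 added) and was -3.72 without fibroblast library 1 and -5.20 without library 2. Also lower were ABCB9 (-1.71), ABCD4 (-1.29), ABCB6 (-0.86) and ABCD3 (-0.39). The ABCD3 call was lost without any one fibroblast library (-0.42 to -0.36, adjusted p 0.0506 to 0.101).

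Higher in fibroblasts were ABCA6, by at least 131-fold, and ABCA9, by 317-fold (95% exact interval 87.0 to 2630 from 2 reads in the epithelial monocultures, both in silk monoculture 1, counting error only). ABCE1 (1.06 ± 0.14, adjusted p = 4.3e-05), ABCB10 (0.96 ± 0.19, adjusted p = 0.00134) and ABCF2 (0.93 ± 0.19, adjusted p = 0.0016) were also higher. ABCE1 ranked first of the family per kb in fibroblasts, at 338 ± 33.8, where ABCC3 ranked first in epithelium. ABCA1 was higher by 0.51 ± 0.16 (adjusted p = 0.0194), a call lost without fibroblast library 1 (0.41, adjusted p = 0.107) and under upper quartile scaling (0.35, adjusted p = 0.103).

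**Figure D5:**
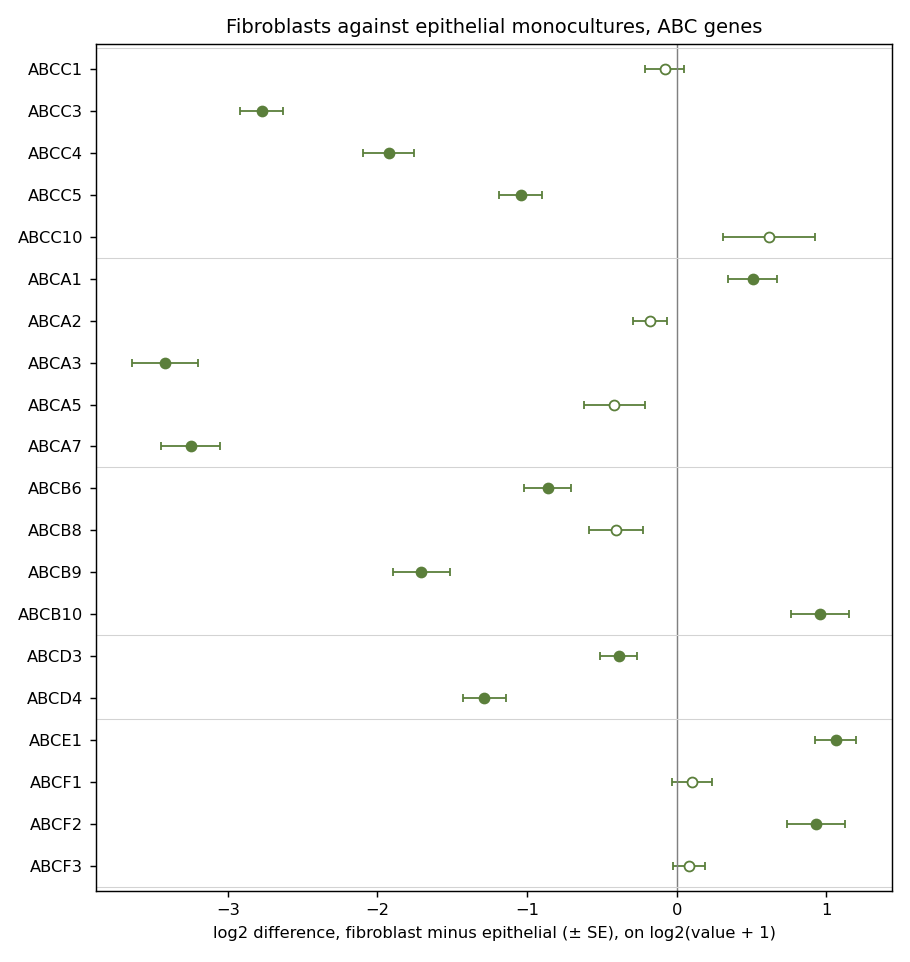
Log2 difference, fibroblast monocultures minus epithelial monocultures, with its SE (horizontal axis, on log2(value + 1)) for 20 ABC genes (vertical axis, by family); filled points had an adjusted p under 0.05. ABCB1, ABCC6, ABCA6 and ABCA9 are not drawn because their fitted change against a group at or near 0 depends on the added constant; ABCA3 (-3.42), ABCA7 (-3.25) and ABCC3 (-2.77) lie farthest to the left.

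Genes that regulate ABC expression or work beside ABC proteins were read from the same fits. Of 18 tested regulators, limma called 0 higher and 2 lower in silk than in LN/PC monocultures (11.1%, where 11.7% of all genes were called). In that limma fit 7 of the 18 had an unadjusted p under 0.05, as did 28.7% of all genes. The 2 called were NR3C1, the glucocorticoid receptor (-0.53 ± 0.13, adjusted p = 0.016), and NFE2L2, the oxidative stress regulator NRF2 (-0.87 ± 0.25, adjusted p = 0.034). In co-cultures 4 of 18 (22.2%) were called, against 36.1% of all genes. Of these 1 was higher on silk, the lipid sensor PPARA (1.48 ± 0.40), and 3 were lower, NFE2L2 (-1.25), NR3C1 (-0.50) and YBX1 (-0.46). NR3C1 rose with fibroblasts on silk (0.63 ± 0.13, adjusted p = 0.009) and on LN/PC (0.60 ± 0.13, adjusted p = 0.005), and YBX1 on LN/PC (0.50). Fibroblasts alone had more NR3C1 (2066 normalized counts) than silk monocultures (609) or LN/PC monocultures (879). The bile acid receptor NR1H4 averaged 629 normalized counts in silk and 406 in LN/PC monocultures and was at 0 in fibroblasts.

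The LXR genes themselves, NR1H2 and NR1H3, were not called between the epithelial groups. Of 9 LXR targets outside the family, 2 were higher and 2 lower in silk than in LN/PC monocultures, 44.4% against 11.7% of all genes. Among them, SCD, a fatty acid desaturase (1.87 ± 0.26), was higher, and SREBF1, a master regulator of lipid synthesis (-1.26 ± 0.17), and MYLIP (-0.96 ± 0.26), which degrades the LDL receptor, were lower. With fibroblasts on LN/PC, SREBF1 (-0.84) and LPCAT3 (-0.92) were lower and PLTP was higher. PLTP was at 0 in LN/PC monocultures, with a mean of 121 normalized counts when fibroblasts were present and 259.8 in fibroblasts alone. Its difference is therefore given as a description, and the part of fibroblast RNA in it was not tested.

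Of 7 tested scaffold and membrane partners, 2 were called between membranes in monocultures (28.6%, where 11.7% of all genes were). In co-cultures 4 were called (57.1%, where 36.1% of all genes were). PDZK1, an apical scaffold, was 1.24 ± 0.15 higher on silk in monocultures and 1.00 ± 0.15 higher in co-cultures, and RDX (radixin) was lower in both (-0.57 and -0.67). EZR (ezrin), which ties apical proteins to actin, was 0.90 ± 0.16 higher on silk in co-cultures, and CAV1 was lower there (-1.93 ± 0.37). CAV1 averaged 20660.0 normalized counts in fibroblasts, 8810.0 in LN/PC co-cultures and 724 in LN/PC monocultures. In monocultures the cobalamin, ribosome recycling and mitochondrial partner lists held 6, 6 and 9 tested genes, and the one called was LMBRD1 (-0.95), lower on silk. In co-cultures the mitochondrial iron-sulfur and heme list gave 3 of 9 higher on silk (33.3%, where 36.1% of all genes were called and 18.5% were higher), ALAS1, the first enzyme of heme synthesis (0.74), SLC25A37 (0.55) and CIAO1 (0.52). TAP1 and TAP2, ABC proteins of antigen peptide transport named outside the symbol rule, gave 0 calls in 7 comparisons with limma. Their adjusted p ran from 0.146 to 0.907, and 1 of these tests, TAP2 averaged over membranes, had an unadjusted p under 0.05.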

How the data were processed

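RNA-seq of 15 libraries, poly-A selected and made with a strand-keeping kit, per the labels' protocols, is the source of the values. Per the submitters' processing notes, the tools included Salmon 1.10.3 and DESeq2. Neither genome build nor annotation is given in the sources read. The values the authors deposited are log2, bottom out at 5.53664461 in all libraries and have the form of a variance-stabilizing transformation, an inference from the values. Inverting it with that lowest value as the only constant gave normalized counts. On 13121 genes above it throughout, the libraries' median ratios to the gene means then all came to 1.01175. A value at the floor becomes 0.

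Genes with at least 10 in at least 3 libraries were tested with limma-trend (limma 3.58.1, R 4.3.3) using log2(value + 1). P-values were adjusted by Benjamini-Hochberg across every tested gene, and adjusted p under 0.05 was a call. The fold changes understate changes of low genes. The 12 epithelial libraries entered 1 fit (14433 genes) and fibroblasts were compared with monocultures in a fit of 9 (14502 genes). Each sample was assigned to its group by its title. The fit was tested on simulated data.

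One read was worth 0.750 to 1.26 normalized counts by the spacing of low values. For a gene at 0, bounds used 3 reads in each library, and such floors and intervals cover counting error only. Fibroblast-restricted genes averaged 1000 or more in fibroblasts, and 100 times the mean of each epithelial monoculture group or more. Levels per kb used the longest coding transcript of GENCODE 29.

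Members, gene lists and tests were chosen with earlier results of these data known. Values in every library are given for ABCB1 and, in each pairwise comparison, up to 6 called members with a mean of at least 100 and the largest differences. Alternatives were the deposited log2 values, a pseudocount of 10, no filter, upper quartile and epithelium-restricted scaling, a replicate block, only the compared libraries, the computed mixture and leaving out each library. The comparison averaged over membranes and the mixture at the share from summed markers were added after the data were seen. Some members and partner genes count in the totals but are not reported here by name.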

Additional observations from a re-analysis of the deposited data

Results flagged for a closer look

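ABCA6, a lipid transporter gene of the chromosome 17 cluster, was present in co-cultures on LN/PC and at 0 in those on silk. The interaction, the co-culture difference on silk minus that on LN/PC, was fitted at -4.80 on log2(value + 1). ABCA6 passed the filter through the LN/PC co-cultures alone, so this test had to find a difference, and the value is given as a description. ABCA6 was at 0 in the silk monocultures, the silk co-cultures and the LN/PC monocultures, and at 36.2, 19.6 and 27.1 normalized counts in LN/PC co-cultures. The fitted size depends on the added constant and is no bound. The fibroblast share of RNA was 9.81 to 15.2% in the same LN/PC co-cultures and 0 to 0.113% in silk co-cultures. In fibroblasts ABCA6 stood at 453, 349 and 319.7 normalized counts. Leaving out any one LN/PC co-culture took ABCA6 under the filter, so it was not tested there.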

How the results depend on the processing

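ABCB1 kept its side of the threshold in most alternatives. Exceptions were the silk co-culture against silk monoculture difference with only the compared libraries (-0.62, adjusted p = 0.0246) and the averaged co-culture difference with upper quartile scaling (-0.56, adjusted p = 0.0412), both of which passed, and the co-culture differences without LN/PC monoculture 2, given with the results. Leaving out 1 library at a time, ABCB1 ran from -0.038 (without LN/PC monoculture 2, a change of sign) to 0.59 for silk against LN/PC monocultures, 0.10 to 0.40 for co-cultures, -0.75 to -0.45 for co-culture on silk, -0.89 to -0.26 on LN/PC, -0.75 to -0.44 averaged and -10.4 to -10.1 in fibroblasts. The interaction ran from -0.36 to 0.27, at 0.03 without silk co-culture 3 and 0.27 without LN/PC monoculture 2. The cause was not tested.

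Counts of called members moved more. With only the compared libraries, 2 members were called between monocultures (4 as reported) and 4 with co-culture on silk (2). The latter count was 1 with no filter, 1 with a replicate block and 0 with epithelium-restricted scaling. That scaling gave 5 between co-cultures (9), 5 with co-culture on LN/PC (3) and 8 averaged over membranes (4). Leaving out 1 library at a time gave 2 to 6 and 3 to 9 between membranes in monocultures and co-cultures, 0 to 3 and 1 to 4 for co-culture on silk and LN/PC, 0 to 2 for the interaction, 3 to 6 averaged and 13 to 19 in fibroblasts. In the interaction 0 members were called without any one LN/PC co-culture, since ABCA6 fell under the filter there. ABCA6 in LN/PC co-cultures was -0.82 against the mixture and -1.49 against the mixture at the 20.9% share, the opposite sign to its difference from monocultures, because the mixture itself holds fibroblast RNA. The fibroblast share was 20.9% from summed markers and 11.9 to 14.5% leaving out 1 library. Of 39 results on single called members, 22 lost no call and did not reverse in the alternatives that tested them. ABCA6 went untested without any one LN/PC co-culture. In the fibroblast comparison, ABCA6 and ABCA9 went untested without any one fibroblast library. Any results of these genes among the 22 are therefore no sign of stability.

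Epithelium-restricted scaling moved the median of all genes from -0.04 to 0.38 for co-culture on LN/PC, from 0.00 to 0.19 on silk, from -0.01 to 0.30 averaged, from 0.03 to -0.21 for the interaction and from 0.03 to -0.12 between co-cultures. Upper quartile scaling moved it from -0.02 to -0.18 in fibroblasts. Under epithelium-restricted scaling the share of calls that were higher went from 62.3% to 96.6% on LN/PC, 77.1% to 94.2% on silk, 67.7% to 97.5% averaged, 40.7% to 18.8% for the interaction, 51.3% to 36.7% between co-cultures and 50.4% to 67.1% between monocultures. Upper quartile scaling gave 66.2% on silk and 30.4% for the interaction.

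Same-numbered libraries did not vary together: 18 pairs had correlations of -0.23 to 0.18, with 2 over 0.1, so the numbers were not taken as pairs. With the number as a block, no ABCB1 call changed. With 3 libraries a group, no permutation p can go below 0.1.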

Other observations

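Beside ABCE1, 4 of 6 tested ribosome recycling partners were higher in fibroblasts than in the epithelial monocultures and none was lower. They were the termination factors GSPT1 (0.77 ± 0.12) and ETF1 (0.56 ± 0.12) and the rescue factors HBS1L (0.68 ± 0.15) and PELO (0.49 ± 0.18). The share of these partners called was 66.7%, near the 58.3% of all tested genes called in either direction (28.0% higher).

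Of 6 tested partners of the cobalamin transporter ABCD4, 2 were higher and 1 lower in silk than in LN/PC co-cultures, a comparison in which 36.1% of all genes were called (18.5% higher, 17.6% lower). AMN (amnionless), which carries the cobalamin receptor cubilin to the apical surface, averaged 42.0 normalized counts in silk co-cultures, 6.92 in silk monocultures and 3.77 in LN/PC co-cultures. AMN, 1 of the 2 higher, passed the filter through the silk co-cultures alone, so it had to differ there. MMACHC was higher by 0.80 ± 0.29 and LMBRD1, the lysosomal partner of ABCD4, had a difference of -0.83 ± 0.27.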
